A study of Danio rerio with 4 samples.

Results

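The caspases, the Bcl-2 family and their closest partners were examined in sorted β-cells of zebrafish, because they make up the machinery through which a cell enters or resists apoptosis. Members were chosen by gene symbol, with earlier results of these data known. They were the genes whose symbol starts with casp, bcl2, mcl1, bax, bmf or birc, without birc5a, together with the symbols bbc3, pmaip1, bik, bida, apaf1, xiap, cflara, fadd, tradd, endog, aifm1, diabloa and diablob. These gave 46 of the 22044 genes measured, 45 of them protein-coding and 1 an antisense RNA. The 46 gene IDs carry 45 symbols, since 2 IDs carry the symbol baxa.

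Apoptosis runs along a pair of routes that meet at the executioner caspases. In the mitochondrial route, BH3-only proteins such as Puma and Noxa sense damage and occupy the anti-apoptotic Bcl-2 proteins, Bax-like proteins then open the outer mitochondrial membrane, and released cytochrome c assembles Apaf1 and caspase-9 into the apoptosome. In the death-receptor route, ligands of the TNF family recruit Tradd, Fadd and caspase-8, and c-Flip competes with caspase-8 in that complex. Inhibitor of apoptosis proteins (IAPs) bind caspases or mark their partners with ubiquitin, and Smac/Diablo from mitochondria displaces them. Pro-inflammatory cytokines are known to engage both routes in mammalian islets, and several survival genes of this machinery are known NF-κB targets in mammals.

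All fish were 3 months old and carried Tg(ins:mKO), named Tg(ins:nlsRenilla-mKO2) in the methods, a fluorescent reporter driven by the insulin promoter, by which β-cells of the primary islet were sorted by FACS. The 2 WT libraries had no further transgene. The 2 Tg(ins:il1b) libraries, written Tg(ins:IL1B) in the labels, also carried an insulin-promoter transgene for the mature form of zebrafish Il-1β with a FLAG tag, linked to a cryaa:mCherry eye marker, so the cytokine was made by the β-cells themselves and the genotype is 1 line raised from 1 founder. Nothing in the sources tells whether the libraries of a genotype were made from different fish or pools. The p-values therefore cover only the spread from library to library, part or all of which may be technical.

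The transgene's gene il1b had 11 and 1.9 normalised counts in WT replicates 1 and 2 against 587910.7 and 423851.2 in Tg(ins:il1b) replicates 1 and 2, which matches the labels. Between 28524617 and 35637508 reads lay in genes per library. The insulin gene ins had 5974286.6 and 8439952.4 normalised counts in WT against 3359298.6 and 2930996.4 in Tg(ins:il1b), lower in both, with adjusted p = 0.316 from limma and 0.00125 from DESeq2. The β-cell markers did not all go this way. Of 9, ins among them, 3 lay above both WT libraries in both Tg(ins:il1b) libraries. One was nkx2.2a, with 3711.4 and 4423.4 in WT against 6452 and 6849.9 in Tg(ins:il1b). Like ins, the markers pdx1, pax6b and ucn3l lay below both WT libraries in both Tg(ins:il1b) libraries. The largest log2 fold change of the 9 was that of ucn3l, at -3.35 (adjusted p = 0.137 from limma and 0.205 from DESeq2). Normalised counts of ucn3l were 5899.2 and 9440.1 in WT against 271.9 and 1949.2 in Tg(ins:il1b). At an unadjusted limma p under 0.05, 1 of the 9 was higher and 3 were lower. The median log2 fold change of the 9 was -0.44. Markers of other cells were present and uneven. The summed level of 4 δ-cell markers, mostly somatostatin, was 95215.2 and 2096.5 in WT against 47228.6 and 1141631.9 in Tg(ins:il1b), so WT replicate 2 and Tg(ins:il1b) replicate 2 stood apart from the other libraries. The sum of 3 α-cell markers was 24145 and 32746.7 in WT against 198975.2 and 440325.1 in Tg(ins:il1b). The sum of 19 macrophage and pan-leukocyte markers was 5424.2 and 18493.5 in WT against 20587.8 and 57666.9 in Tg(ins:il1b), of which the cd74 genes made up most. Of these 19 genes, 10 were above both WT libraries in both Tg(ins:il1b) libraries, and Tg(ins:il1b) replicate 1 alone was above both WT libraries for 11 and replicate 2 for 17. Among the defining genes, mpeg1.1 and lcp1 were at 0 in WT replicate 1 and Tg(ins:il1b) replicate 1. In WT replicate 2 they had 1 and 3.9, and in Tg(ins:il1b) replicate 2 they had 20.3 and 56.6. The gene ptprc had 6.4 and 6.8 in WT against 33.4 and 41.7 in Tg(ins:il1b), and mfap4 had 1.8 and 0 against 22.2 and 162.4. The sum of 5 neutrophil markers was 67 and 49.1 in WT against 213.2 and 543.9 in Tg(ins:il1b).

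Of the 46 members, 38 reached 10 normalised counts in at least 2 libraries and were tested, with limma on log2(value + 1) and Benjamini-Hochberg adjustment over all 18504 genes tested. At an adjusted p under 0.05, the anti-apoptotic gene bcl2a rose in Tg(ins:il1b) and 0 members fell. Among all genes, 1.1% were called higher and 0.53% lower by limma, against 1 of 38 and 0 of 38 members. The quasi-likelihood test of edgeR on the recovered reads also called bcl2a higher and 0 members lower, with 0.903% of all genes called higher and 0.373% lower. DESeq2 gave an adjusted p to 40 members and called 5 higher, or 12.5% (bcl2a, pmaip1, cflara, birc7 and the antisense RNA birc6-as2), and 0 lower, with 4.24% of all genes higher and 2.45% lower. Before adjustment, at a limma p under 0.05, 5 members were higher (13.2%) against 7.95% of all genes and 2 were lower (5.26%) against 6.45%. Both Tg(ins:il1b) libraries lay above both WT libraries for 14 tested members, or 36.8%, where 22.3% of all tested genes did, and below them for 4 members, or 10.5%, where 22.1% of all tested genes did. The median log2 fold change was 0.16 over the tested members and -0.01 over all tested genes, and 26 members had a positive and 12 a negative value, where 49.3% of all tested genes had a positive one. Of the 38 members, 20 had a log2 fold change within 0.5 of 0 in either direction, against 58.0% of all tested genes. Scaling to equal read totals moved the median of all genes by 0.16 on the log2 scale, to 0.15, and the median of the members to 0.33, and it moved the share of higher genes among all calls from 67.5% to 77.9%.

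**Figure D1:**
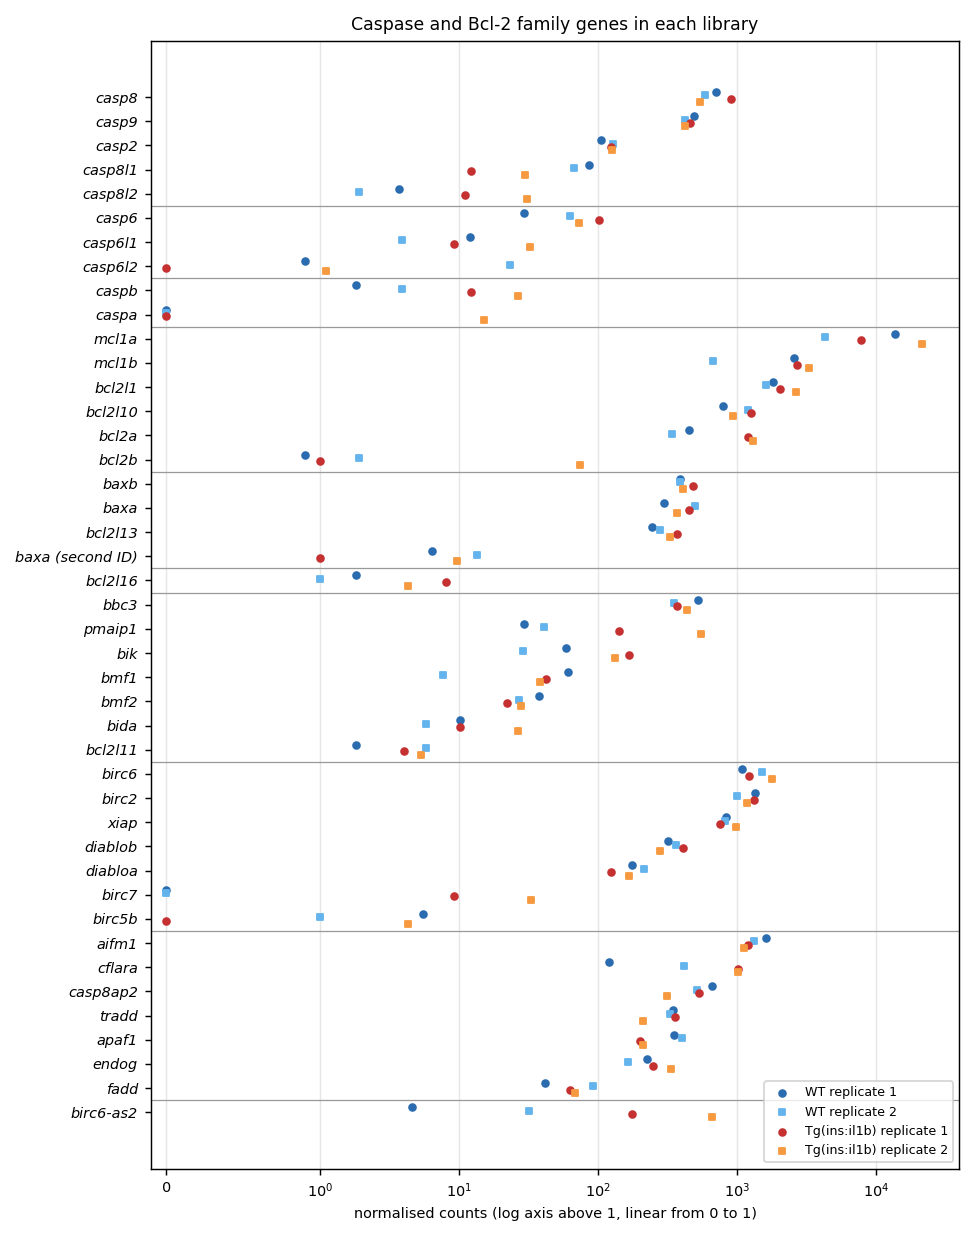
Normalised counts of 43 of the 46 members in the 4 libraries, on an axis that is logarithmic above 1 and linear from 0 to 1, with 1 point per library and lines between the groups of members, in the order initiator, executioner and inflammatory caspases, anti-apoptotic Bcl-2 proteins, Bax-like proteins, bcl2l16, BH3-only proteins, IAPs and antagonists, adaptors and effectors, and the antisense RNA. The Tg(ins:il1b) points of bcl2a, pmaip1, bik and cflara lie to the right of both WT points, while those of casp8, casp9 and xiap overlap the WT points.

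Anti-apoptotic Bcl-2 proteins keep the outer mitochondrial membrane closed by binding BH3-only and Bax-like proteins. Their 6 genes were bcl2a, bcl2b, bcl2l1, bcl2l10, mcl1a and mcl1b. The gene bcl2a, a zebrafish counterpart of BCL2, lies on chromosome 24 from 28058051 to 28150459 of GRCz10 on the reverse strand. It had 448.2 and 341.5 normalised counts in WT against 1200.6 and 1310.1 in Tg(ins:il1b). The replicates of each genotype lay close together and the genotypes did not overlap. The means were 395 ± 75.4 and 1255 ± 77.4 (SD, n = 2), 3.18 times as high in Tg(ins:il1b), with a log2 fold change of 1.68 ± 0.26 (SE, 95% interval 1.06 to 2.29, limma adjusted p = 0.0398). The adjusted p was 0.0434 from edgeR and 7.2e-06 from DESeq2. With any single library left out, the log2 fold change of bcl2a stayed between 1.48 and 1.88, while its adjusted p from limma lay between 0.134 and 0.283 and that from DESeq2 between 0.0022 and 0.03995. In that setting limma called at most 1 gene of the whole table. The sums of α-cell, macrophage and neutrophil markers were likewise above WT in both Tg(ins:il1b) libraries, and their part in the level of bcl2a or of the other members was not tested. In bulk samples, fewer cells of a type and less RNA per cell cannot be told apart.

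The second copy, bcl2b, was hardly detected. It had 0.9 and 1.9 normalised counts in WT against 1 and 73.7 in Tg(ins:il1b), so only Tg(ins:il1b) replicate 2 held more than a trace, and it fell below the filter. Its adjusted p from DESeq2 was 0.125, and 0.0141 without Tg(ins:il1b) replicate 1. Of the level of both copies per kb, bcl2a made up 97.5% in Tg(ins:il1b) replicate 2 and at least 99.7% in the other libraries.

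The mcl1 genes encode Mcl-1, a short-lived survival protein. The gene mcl1a had 13818 and 4288.3 normalised counts in WT against 7851.7 and 21678 in Tg(ins:il1b). Its libraries of the same genotype differed by 3.22 times in WT and 2.76 times in Tg(ins:il1b), and the genotypes overlapped. The log2 fold change was 0.76 ± 0.65 (SE, limma adjusted p = 0.687), with an interval from -0.81 to 2.33. The order of the libraries by mcl1a was that of the δ-cell marker sum, with WT replicate 2 lowest and Tg(ins:il1b) replicate 2 highest, and the part of those cells in its level was not tested. That order is not particular to δ-cell markers. Some other genes had it and others did not. One that did was bag3, with 2742.5 and 554.7 normalised counts in WT against 2268.9 and 5018.2 in Tg(ins:il1b). The copy mcl1b had 2559.7 and 675.3 in WT against 2695.4 and 3286 in Tg(ins:il1b), where WT replicate 2 alone was low, and its log2 fold change was 1.18 ± 0.58 (SE, limma adjusted p = 0.426). Without WT replicate 1, DESeq2 called both genes higher, with log2 fold changes of 1.78 for mcl1a (adjusted p = 0.0273) and 2.15 for mcl1b (adjusted p = 5.76e-05), whereas without WT replicate 2 they were 0.08 and 0.21.

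The gene bcl2l1 encodes Bcl-xL. It had 1815.8 and 1629.5 normalised counts in WT against 2044.5 and 2683.3 in Tg(ins:il1b), above WT in both libraries, with a log2 fold change of 0.45 ± 0.23 (SE, limma adjusted p = 0.444). The gene bcl2l10, known in zebrafish as Nrz and acting at the endoplasmic reticulum, had 795.4 and 1209.8 in WT against 1258.3 and 931.8 in Tg(ins:il1b), overlapping, with a log2 fold change of 0.14 (limma adjusted p = 0.896). All 5 tested genes of this group had positive log2 fold changes, from 0.14 to 1.68, where 49.3% of all tested genes had a positive one. Limma called 1 of the 5 higher, against 1.1% of all tested genes. The values of mcl1a and bcl2l10 overlapped between the genotypes.

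**Figure D2:**
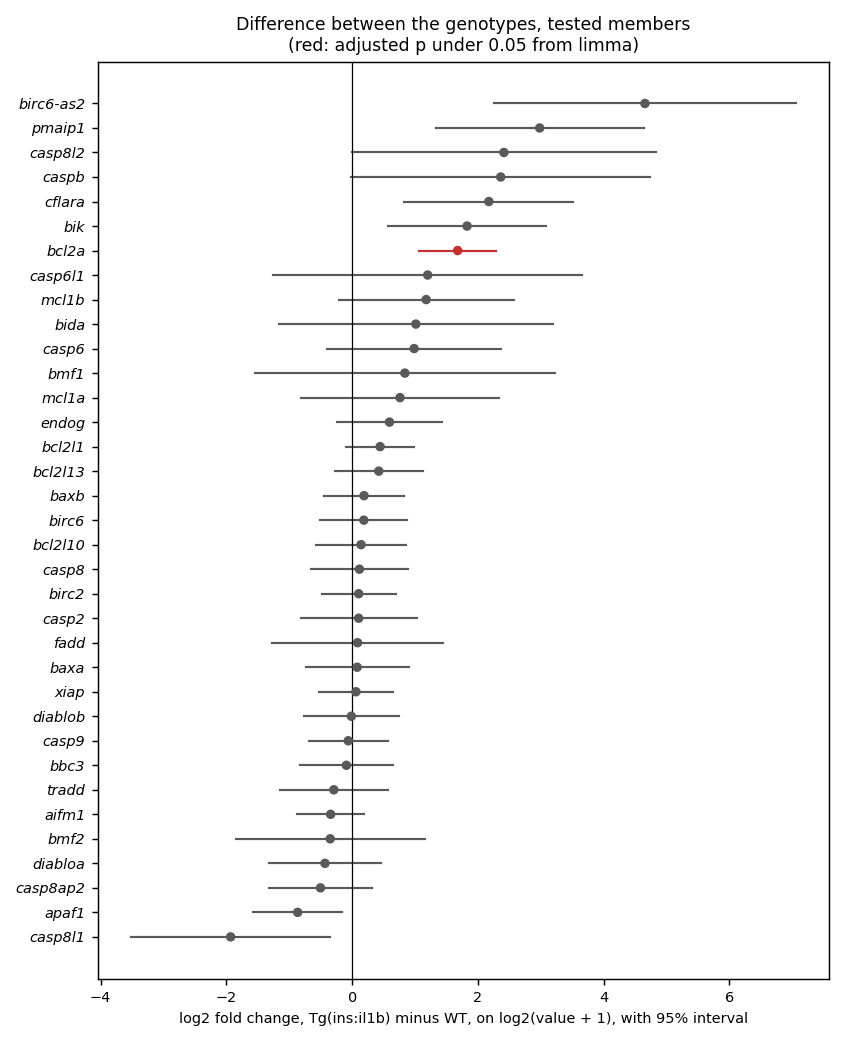
Log2 fold change, Tg(ins:il1b) minus WT, of 35 of the 38 tested members on the log2(value + 1) scale, with its 95% interval from limma over 2 libraries per genotype. The point of bcl2a at 1.68, in red, is the only one with an adjusted p under 0.05, and the intervals of birc6-as2, pmaip1, cflara and bik above 0 and of apaf1 and casp8l1 below 0 also leave out 0 before adjustment.

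BH3-only proteins carry the signal from damage or stress to the Bcl-2 proteins. Of 7 members, 6 were tested, and limma and edgeR called 0 and DESeq2 called 1. At an unadjusted limma p under 0.05, 2 were higher. Over all genes, 7.95% were higher at that unadjusted p, and 1.1% were called higher by limma and 4.24% by DESeq2. The gene pmaip1 encodes Noxa, a partner of Mcl-1. It had 29.4 and 40.5 normalised counts in WT against 142.5 and 548.2 in Tg(ins:il1b). Both Tg(ins:il1b) libraries were higher than WT but differed from each other by 3.85 times. The log2 fold change was 2.98 ± 0.69 (SE, interval 1.33 to 4.63, limma adjusted p = 0.114), and it was 3.30 with an adjusted p of 7.64e-05 from DESeq2. Without Tg(ins:il1b) replicate 2, the DESeq2 value was 2.03 with an adjusted p of 0.273. Tg(ins:il1b) replicate 2 was also the library with the highest sums of δ-cell, α-cell, macrophage and neutrophil markers, and the part of those cells was not tested.

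The gene bik encodes a BH3-only protein of the endoplasmic reticulum. It had 58.8 and 28.9 normalised counts in WT against 167.8 and 132.5 in Tg(ins:il1b). The genotypes did not overlap, and here Tg(ins:il1b) replicate 1 was the higher one. The log2 fold change was 1.83 ± 0.52 (SE, interval 0.57 to 3.09), with adjusted p = 0.180 from limma and 0.0564 from DESeq2.

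Puma, the damage-induced killer encoded by bbc3, had the highest mean of normalised counts among the BH3-only genes, while per kb of transcript pmaip1 stood above it in Tg(ins:il1b), at 359 against 107. The gene bbc3 had 523.5 and 355 normalised counts in WT against 372.9 and 439.2 in Tg(ins:il1b), which lay between the WT values, and its log2 fold change was -0.09 (interval -0.84 to 0.65, limma adjusted p = 0.944) and turned to 0.071 with equal read totals. The short gene bmf1 had between 7.7 and 60.6 normalised counts. Per kb, its means of 101 in WT and 119 in Tg(ins:il1b) were near those of bbc3, 115 and 107. In WT that mean covers unlike libraries, at 179 and 22.7 per kb for bmf1 against 137 and 93.2 for bbc3. The counts of bmf2 were between 22.2 and 37.7 and those of bida, the zebrafish Bid, between 5.8 and 26.7. The gene bcl2l11 encodes Bim, and it had at most 5.8 normalised counts in any library and was not tested.

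Bax-like proteins form the pore in the mitochondrial membrane. Of 4 gene IDs in this group, 3 were tested, with 0 called by limma, edgeR or DESeq2 and 0 with an unadjusted p under 0.05. Over all genes, 7.95% were higher and 6.45% lower at that unadjusted p. The group also holds the relative bcl2l13, to which no pore-forming role is assigned here. The zebrafish Bax genes are baxa and baxb. The gene baxa had 300.3 and 498.8 normalised counts in WT against 448.7 and 372.9 in Tg(ins:il1b), with a log2 fold change of 0.08 (interval -0.74 to 0.90). The gene baxb had 387.6 and 390.7 in WT against 479 and 411.4 in Tg(ins:il1b), with a log2 fold change of 0.19 (interval -0.45 to 0.83). The second ID named baxa lies beside the first on chromosome 3, from 37624615 to 37631942 against 37634631 to 37644015, and had between 1 and 13.5 normalised counts. How reads were shared between these near neighbours is not given, so both values are uncertain. The gene bcl2l13, a larger relative at the mitochondrial outer membrane, had 244.3 and 277.8 in WT against 372.9 and 328.1 in Tg(ins:il1b), above WT in both libraries, with a log2 fold change of 0.42 (limma adjusted p = 0.592). No role is assigned here to bcl2l16, which had at most 8.1 normalised counts.

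Initiator caspases start the cascade and executioner caspases cleave the cell's proteins. Of the 5 initiators, limma, edgeR and DESeq2 called 0, and 1 was lower with an unadjusted p under 0.05, as were 6.45% of all genes. The gene casp8, the caspase of the death-receptor complex, had 705.4 and 587.5 normalised counts in WT against 900.5 and 540.7 in Tg(ins:il1b), which lay on both sides of WT. Its log2 fold change was 0.12 (interval -0.65 to 0.88, limma adjusted p = 0.928). The gene casp9, the caspase of the apoptosome, had 492.3 and 425.5 in WT against 457.8 and 420 in Tg(ins:il1b), with a log2 fold change of -0.06 (interval -0.69 to 0.57), or 0.10 with equal read totals. The replicates and the genotypes of casp9 were close. The gene casp2 had 105.6 and 127.3 in WT against 123.3 and 126.1 in Tg(ins:il1b), with a log2 fold change of 0.10.

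On the same chromosome 6 as casp8 lies the caspase-8-like gene casp8l1, from 12862945 to 12868279, where casp8 runs from 12811027 to 12821868. It had 86.3 and 66.6 normalised counts in WT against 12.1 and 29.9 in Tg(ins:il1b). Both Tg(ins:il1b) libraries were below both WT libraries. The log2 fold change was -1.93 ± 0.66 (SE, interval -3.51 to -0.35), and the adjusted p was 0.247 from limma and 0.188 from DESeq2. Of the summed level per kb of casp8 and casp8l1, casp8 took 79.2% and 80.4% in WT against 97.2% and 89.4% in Tg(ins:il1b). The other caspase-8-like gene, casp8l2 on chromosome 9, lay in the opposite direction. Its counts were far below those of casp8l1 in WT and close to them in Tg(ins:il1b). It had 3.7 and 1.9 normalised counts in WT against 11.1 and 31 in Tg(ins:il1b), with a log2 fold change of 2.41 ± 1.01 (SE, limma adjusted p = 0.348).

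Of the executioner caspases, the caspase-6 genes lie in a row on the reverse strand of chromosome 3, with casp6l1 from 32822455, casp6 from 32827711 and casp6l2 from 32837490. The gene casp6 had 29.4 and 62.7 normalised counts in WT against 102.1 and 72.7 in Tg(ins:il1b), above WT in both, with a log2 fold change of 0.99 ± 0.57 (SE, limma adjusted p = 0.515). Its neighbour casp6l1 had between 3.9 and 32.1, and casp6l2 had 23.2 in WT replicate 2 and at most 1.1 in the other libraries.

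Inflammatory caspases process cytokines in the inflammasome rather than running apoptosis, and in zebrafish they are encoded by caspa and caspb. Both were near the floor in these cells. The gene caspb had 1.8 and 3.9 normalised counts in WT against 12.1 and 26.7 in Tg(ins:il1b), with a log2 fold change of 2.36 ± 0.98 (SE, limma adjusted p = 0.349). The gene caspa had 0 reads in 3 libraries and 14 reads, or 15 normalised counts, in Tg(ins:il1b) replicate 2, the library with the most macrophage and neutrophil markers. The part of those cells in either caspase was not tested. Against a floor of 3 reads per WT library, the mean of caspa in Tg(ins:il1b) was at least 2.66-fold higher, and this rests on 1 library.

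**Figure D3:**
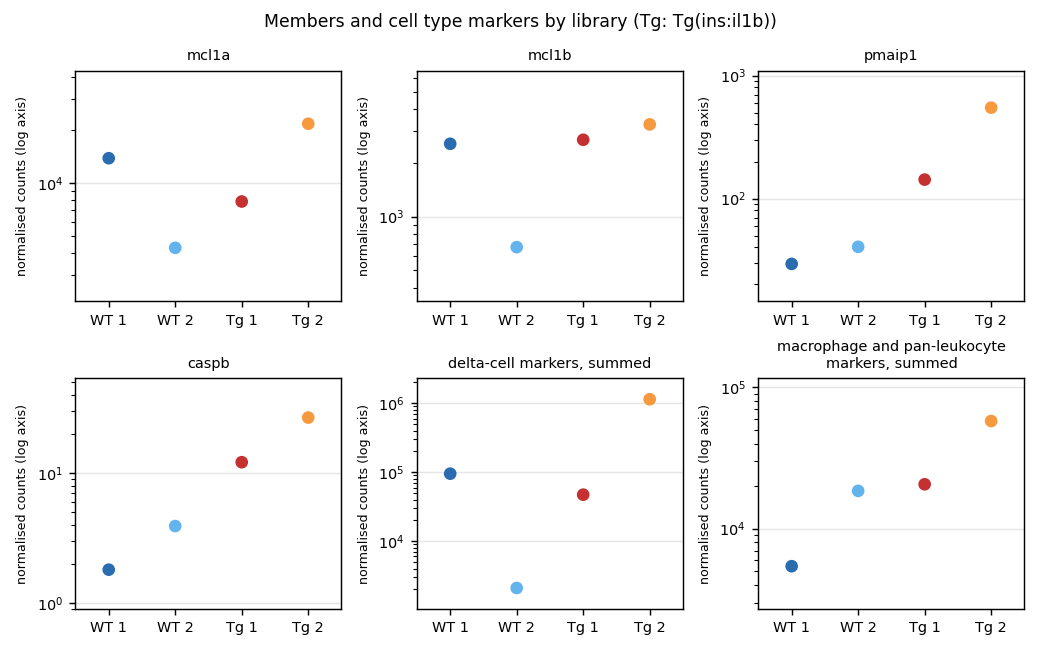
Normalised counts on log axes in each library for mcl1a, mcl1b, pmaip1 and caspb and for the sums of 4 δ-cell and 19 macrophage and pan-leukocyte markers, with 1 point per library. The level of mcl1a follows the δ-cell sum in its order over the libraries, lowest in WT replicate 2 at 4288.3 and highest in Tg(ins:il1b) replicate 2 at 21678. Some genes not drawn, bag3 among them, have the same order. The levels of mcl1b, pmaip1 and caspb do not follow that order. Those of pmaip1 and caspb have the order of the macrophage and pan-leukocyte sum, lowest in WT replicate 1 and highest in Tg(ins:il1b) replicate 2. Members not drawn, cflara and birc6-as2 among them, have that order too. The part of either kind of cell was not tested. The highest values of pmaip1 and caspb, 548.2 and 26.7, also lie in Tg(ins:il1b) replicate 2.

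IAPs restrain caspases and steer TNF receptor signalling, and Diablo proteins antagonise them. Of 7 members, 5 were tested, with 0 called by limma or edgeR and 0 with an unadjusted p under 0.05. DESeq2 called birc7 higher, a gene that limma did not test, and it called 4.24% of all genes higher. The gene xiap, the direct caspase inhibitor, had 827.5 and 824.9 normalised counts in WT against 756 and 983.1 in Tg(ins:il1b), on both sides of WT, with a log2 fold change of 0.06 (interval -0.53 to 0.65, limma adjusted p = 0.952). The gene birc2, a cIAP that ubiquitinates TRAF-bound kinases, had 1354.7 and 1005.3 in WT against 1335.1 and 1178.7 in Tg(ins:il1b), inside the WT range, with a log2 fold change of 0.10 (interval -0.49 to 0.69). The giant ubiquitin ligase gene birc6 had 1096.6 and 1520.5 in WT against 1215.8 and 1775 in Tg(ins:il1b), overlapping, with a log2 fold change of 0.19 (interval -0.50 to 0.88). Diablo is encoded by diabloa and diablob, whose log2 fold changes were -0.43 and -0.01 with adjusted p of 0.686 and 0.994 from limma. The gene birc7, known in human as Livin, had 0 reads in both WT libraries and 9 and 31 reads in Tg(ins:il1b). Its mean in Tg(ins:il1b), 21.1 normalised counts, was at least 7.47-fold higher than a floor of 3 reads per WT library. The adjusted p of birc7 was 0.0361 from DESeq2 with all libraries and 0.0785 without Tg(ins:il1b) replicate 1, and DESeq2 gave birc7 no adjusted p without any of the other libraries. The survivin copy birc5b had at most 5.5 normalised counts in any library.

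Adaptors and effectors join receptors, caspases and mitochondria. All 7 were tested, with 0 called by limma or edgeR. With an unadjusted p under 0.05, 1 was higher and 1 lower, against 7.95% and 6.45% of all genes. DESeq2 called 1 gene higher, against 4.24% of all genes. That gene was cflara, which encodes c-Flip, the caspase-8-like protein without protease activity that limits death-receptor killing. It had 120.3 and 416.8 normalised counts in WT against 1009.6 and 1020.5 in Tg(ins:il1b). The Tg(ins:il1b) libraries were nearly equal and above both WT libraries, while the WT libraries differed by 3.46 times. The mean in Tg(ins:il1b) was 3.78 times that in WT, and the log2 fold change was 2.17 ± 0.56 (SE, interval 0.83 to 3.52, limma adjusted p = 0.143) and 1.92 with an adjusted p of 0.0103 from DESeq2. Without WT replicate 1, the DESeq2 value was 1.28 with an adjusted p of 0.125.

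The apoptosome scaffold gene apaf1 had 351.8 and 399.4 normalised counts in WT against 201.1 and 209.4 in Tg(ins:il1b). The replicates were close in both genotypes and Tg(ins:il1b) was below WT, at 0.546 times its mean. The log2 fold change was -0.87 ± 0.29 (SE, interval -1.57 to -0.16), with adjusted p = 0.247 from limma and 0.161 from DESeq2. The gene apaf1 overlaps anks1b on the opposite strand, and the strand setting of the counting is not given in the sources used here. How reads in the shared stretch were assigned is therefore not known, and the values of both genes are uncertain. The gene anks1b had 946 and 620.3 in WT against 497.2 and 661.5 in Tg(ins:il1b).

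Among the receptor adaptors, tradd had between 210.5 and 358.8 normalised counts and fadd between 41.3 and 91.7, with log2 fold changes of -0.29 and 0.09. The log2 fold change of casp8ap2, a partner of caspase-8 that also serves histone RNA processing in mammals, was -0.50 (limma adjusted p = 0.587). The mitochondrial flavoprotein gene aifm1 had 1624.7 and 1317.9 in WT against 1192.6 and 1117.8 in Tg(ins:il1b), below WT in both, with a log2 fold change of -0.34 (limma adjusted p = 0.569). The mitochondrial nuclease gene endog had 225 and 164 in WT against 250.6 and 336.6 in Tg(ins:il1b), above WT in both, with a log2 fold change of 0.59 (limma adjusted p = 0.521).

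The antisense RNA birc6-as2 entered through its symbol and encodes no apoptosis protein. It lies within birc6 on chromosome 17, from 22667334 to 22669804 on the reverse strand, where birc6 runs from 22567520 to 22721893 on the forward strand. It had 4.6 and 31.8 normalised counts in WT against 176.9 and 656.1 in Tg(ins:il1b). The genotypes did not overlap, and the replicates differed by 6.91 times in WT and 3.71 times in Tg(ins:il1b). For birc6-as2 the log2 fold change was 4.66 ± 1.00 (SE, interval 2.25 to 7.06, limma adjusted p = 0.0956) and 4.52 with an adjusted p of 7.42e-06 from DESeq2, or 3.29 and 0.0541 without Tg(ins:il1b) replicate 2. Without the strand setting, it is not known how reads in the stretch shared by birc6-as2 and birc6 were assigned, so both values are uncertain. The same holds for xiap and nxt2 and for birc2 and polq, which overlap on opposite strands.

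**Figure D4:**
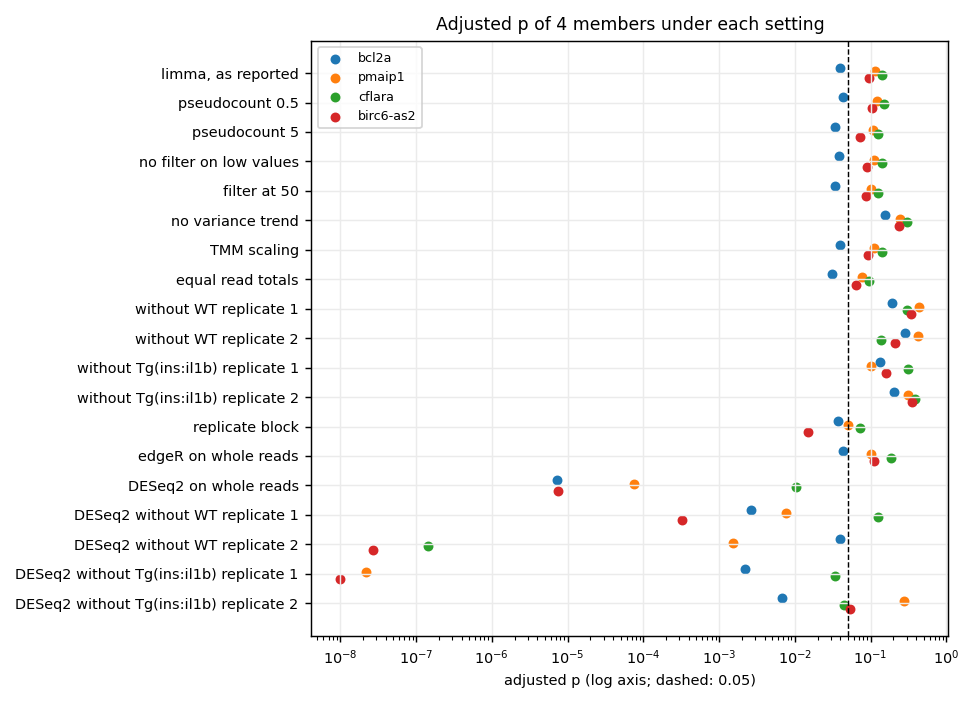
Adjusted p, on a log axis, of bcl2a, pmaip1, cflara and birc6-as2 in the fit reported and in the 18 other settings, with a dashed line at 0.05. The points of bcl2a lie under the line in the fit reported at 0.0398 and in edgeR at 0.0434, above it without the variance trend and whenever limma had a library left out, and those of the other 3 members cross it mainly in DESeq2.

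Levels of different genes were compared per kb of transcript length, as the table lists it. On this scale mcl1a was the highest member in both genotypes, with a mean of 6425 normalised counts per kb in WT, at the 98.7th percentile of all genes, and 10479 in Tg(ins:il1b). Bcl-xL (bcl2l1), mcl1b and bcl2l10 followed in WT at 784, 756 and 743 normalised counts per kb. By the WT mean, the members ranked 1 to 4 were thus all anti-apoptotic. Neither their order nor the place of mcl1b among them is resolved, since its WT libraries were 1196 and 316 per kb. In WT replicate 2, aifm1 at 445, xiap at 374 and birc2 at 323 per kb stood above mcl1b. The rank of bcl2a among the 46 members was 13 in WT, at 216 per kb, and 5 in Tg(ins:il1b), at 687. That of cflara was 17 at 118 per kb in WT and 6 at 447 in Tg(ins:il1b), and that of pmaip1 was 27 at 36.3 and 10 at 359.

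**Figure D5:**
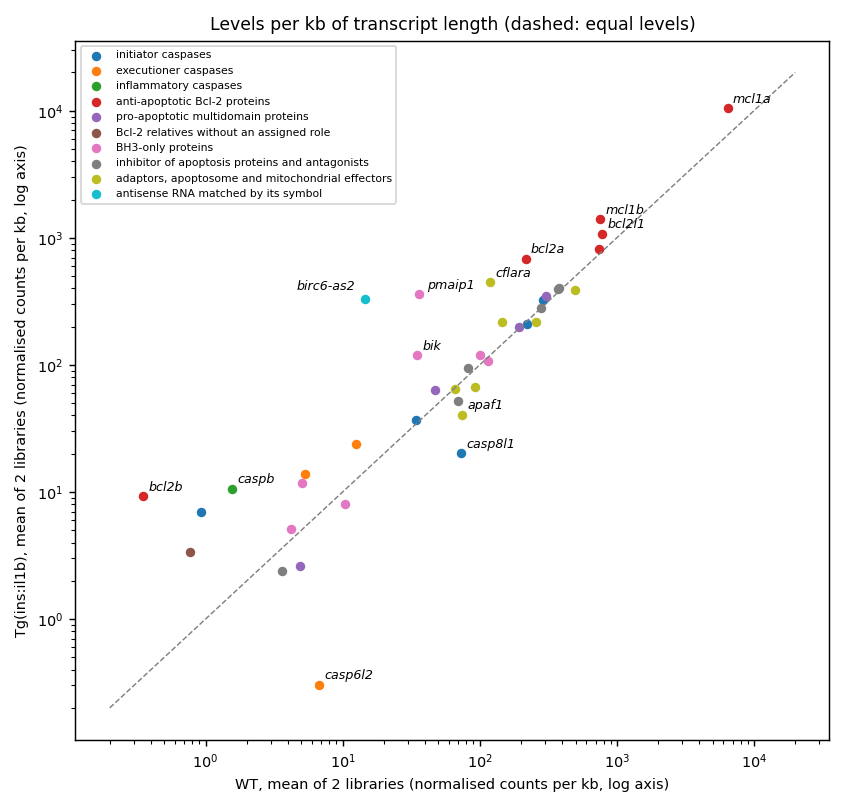
Mean normalised counts per kb of 41 members in WT (x axis) and in Tg(ins:il1b) (y axis), both logarithmic, coloured by role, with a dashed line at equal levels. The members birc7 and caspa, at 0 in WT, are not drawn. The point of mcl1a lies at the upper end of the line, bcl2a at 216 and 687, cflara at 118 and 447 and pmaip1 at 36.3 and 359 lie above it, and casp8l1 lies below it.

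Summed by role, the levels per kb of the BH3-only genes and of the adaptors and effectors were above WT in both Tg(ins:il1b) libraries. Without 1 member each they were not. Those members, pmaip1 and cflara, had the largest rises of their groups, so leaving them out had to narrow the difference. The BH3-only genes summed to 414 and 199.64 normalised counts per kb in WT against 522 and 935 in Tg(ins:il1b), and without pmaip1 to 383 and 158 in WT against 374 and 366 in Tg(ins:il1b), which lay between the WT values. The adaptors and effectors summed to 1247 and 1252 in WT against 1494 and 1396 in Tg(ins:il1b), and without cflara the order turned, to 1194 and 1069 in WT against 1050 and 947 in Tg(ins:il1b). The anti-apoptotic genes summed to 12664 and 5185 in WT against 9352 and 19567 in Tg(ins:il1b), which overlapped. Without mcl1a, their highest member, the sums were 2857 and 2141 in WT against 3779 and 4182 in Tg(ins:il1b), with no overlap. The other 2 groups did not overlap to begin with, and leaving out their highest member in WT also gave no overlap. Without bbc3, the BH3-only genes summed to 276 and 106 in WT against 424 and 820 in Tg(ins:il1b). Without aifm1, the adaptors and effectors summed to 698 and 807 in WT against 1091 and 1019 in Tg(ins:il1b). The full anti-apoptotic sums, most of them mcl1a, overlapped already. Without bcl2a they still did, at 12419 and 4998 in WT against 8695 and 18851 in Tg(ins:il1b). That does not tell what part bcl2a had in the sums without mcl1a. The IAPs with their antagonists differed little, at 1209 and 1170 in WT against 1234 and 1263 in Tg(ins:il1b), and without birc2 they overlapped. The inflammatory caspases were near 0 in WT, at 0.986 and 2.14 against 6.63 and 24.3 in Tg(ins:il1b). The initiator caspases overlapped, at 666 and 569 in WT against 674 and 519 in Tg(ins:il1b), and so did the Bax-like proteins, at 498 and 607 in WT against 663 and 569 in Tg(ins:il1b). These sums are given as a description, with no test.

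Other genes of the pathway were read from 6 lists, of which 5 are described. The lists were chosen with earlier results of these data known. Over all 6, limma called 3 of 81 tested genes higher and 1 lower, and the lower gene lies outside the 5. Among all genes, limma called 1.1% higher and 0.53% lower, and DESeq2 called 4.24% higher and 2.45% lower. At an unadjusted limma p under 0.05, 7.95% of all genes were higher and 6.45% lower. Of 15 tested genes of death receptors and their signalling, 1 rose and 0 fell by limma, 2 were called higher by DESeq2, and 3 were higher and 2 lower with an unadjusted p under 0.05. The gene that rose, tnfsf10l4, encodes a relative of the death ligand TRAIL and had 7.3 and 19.3 normalised counts in WT against 281 and 194.5 in Tg(ins:il1b), with a log2 fold change of 4.18 ± 0.63 (SE, limma adjusted p = 0.039). The kinase gene ripk2 had 55.1 and 76.2 in WT against 217.3 and 200.9 in Tg(ins:il1b), with adjusted p = 0.125 from limma and 0.0126 from DESeq2. The other genes with an unadjusted p under 0.05 went both ways and were called by neither tool. The death receptor gene fas had 258.1 and 189.1 in WT against 434.6 and 463.8 in Tg(ins:il1b), with a log2 fold change of 1.02 ± 0.31 (SE, limma adjusted p = 0.197). The receptor gene tnfrsf21 had 2858.2 and 2246.9 in WT against 1426 and 1507.8 in Tg(ins:il1b), with a log2 fold change of -0.79 ± 0.22 (SE, limma adjusted p = 0.168), and pidd1 had 68.9 and 72.4 in WT against 19.2 and 33.1 in Tg(ins:il1b). The median log2 fold change of this list was 0.08, against -0.01 over all tested genes.

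The TRAF partners of the IAPs had 16 tested genes, of which 2 rose and 0 fell by limma and by DESeq2. The gene traf3, a TRAF adaptor that works with cIAPs on the kinase NIK, had 126.7 and 78.1 normalised counts in WT against 821.7 and 805.7 in Tg(ins:il1b), with a log2 fold change of 3.02 ± 0.35 (SE, limma adjusted p = 0.0201). The gene tnfaip3 encodes the ubiquitin editor A20, and its log2 fold change was 2.70 ± 0.35 (SE, limma adjusted p = 0.0258). Their partner among the members, birc2, had the values given above, with a log2 fold change of 0.10.

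A list of Bcl-2, BH3 and other apoptosis-related genes outside the symbols searched had 14 tested genes. It had 0 calls by limma and by DESeq2 and 1 gene higher with an unadjusted p under 0.05 (tmbim4). Its highest gene, tegt, encodes Bax inhibitor-1 and had a log2 fold change of -0.23. The 15 tested apoptosome and substrate genes had 0 calls by limma, 1 lower with an unadjusted p under 0.05 and 1 called lower by DESeq2, the septin gene sept4a, with a log2 fold change of -2.08 (adjusted p = 0.192 from limma and 0.0455 from DESeq2). The 5 tested inflammasome and pyroptosis genes had 0 calls by limma and by DESeq2 and 0 with an unadjusted p under 0.05. Their median log2 fold change was -0.30, against -0.01 over all tested genes. The highest of them, txnipa, overlapped between the genotypes, at a log2 fold change of -0.70 (limma adjusted p = 0.460). The adaptor gene pycard, which recruits caspa, had 0 normalised counts in both WT libraries and 1 and 19.2 in Tg(ins:il1b). The gene pycard fell below the filter and was not tested.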

How the data were processed

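The mRNA of sorted β-cells was sequenced as paired-end reads on an Illumina HiSeq2500. Per the methods and the submitters' processing notes, reads were mapped with GSNAP to GRCz10 with Ensembl annotation 87. For the version of GSNAP, the counter, the strand setting and the normalisation tool, the entry is "not given in the sources used here". The authors deposited a signal per gene called normalised counts, each library's count divided by a factor of its own. Dividing by the worth of 1 read gave whole reads, within 0.1, for 100% of values, with 28524617 to 35637508 reads per library. Their number limits the precision of low genes. In each library the worth of 1 read was the inverse of the size factor that DESeq2 computed from the whole reads. These were 0.918 and 1.089 in WT replicate 1, and 1.069 and 0.936 in Tg(ins:il1b) replicate 2.

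Coordinates, lengths and symbols are those of the deposited table. No sequences are shown. One symbol searched, htra2, was not matched by any row used here. The 18504 genes reaching 10 normalised counts in 2 or more libraries entered limma 3.58.1 in R 4.3.3, with the variance trend, on log2(value + 1), which understates changes of low genes. Intervals are 95% limma intervals. edgeR 4.0.16 and DESeq2 1.42.0 were run on the whole reads. The tests called 302 genes (limma), 236 (edgeR) and 1245 (DESeq2). The count from DESeq2 is also the number of differentially expressed genes that the paper reports. Code was tested on simulated data. Python 3.11.15, pandas 2.3.3, numpy 2.4.6 and matplotlib 3.10.9 were also used.

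Members and lists were chosen with earlier results of these data known. Full values are given for members called by any tool or at an unadjusted limma p under 0.05 and for the 3 members with the highest mean in each role group. Of each list, up to 3 called genes are named, or the one with the highest mean. Other named genes (bcl2b, casp8l2, fas, tnfrsf21, pidd1, tmbim4, sept4a and pycard among them) were chosen after their values were seen. Some members, and 1 list, are not reported here one by one, although they count in the totals over the members. Alternatives changed the pseudocount, filter, variance model, scaling, test and replicate block and left out each library in turn. DESeq2 with each library left out was added after seeing the data.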

Additional observations from a re-analysis of the deposited data

How the results depend on the processing

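The count of members called higher, 1 in the fit reported, was 0 without the variance trend, 5 in DESeq2 and 3 with the replicate block. Over all genes, 204 were higher and 98 lower. Without the variance trend these were 13 and 0, in DESeq2 789 and 456, and with the replicate block 293 and 144. With 1 library left out, a genotype held only 1 library, so counts of calls are not compared there. The pseudocount, the filter, TMM scaling and edgeR kept bcl2a as the single member called.

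The replicate block added birc6-as2 (adjusted p = 0.0151) and pmaip1 (adjusted p just under 0.05) to bcl2a (0.0369). Over all tested genes, samples with the same number did not deviate together (correlation 0.03). A correlation over all genes can miss a shared preparation that moves only some of them. Whether samples with the same number were prepared together is not given and was not tested.

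Scaling to equal read totals turned the sign of bbc3 (0.071) and casp9 (0.10), both uncalled. With 1 library left out, signs also turned for genes not called in the fit reported, with ranges of -0.29 to 0.44 for baxa, -0.38 to 0.19 for bbc3, -0.12 to 0.32 for birc2, -0.10 to 0.46 for birc6, -0.031 to 0.24 for casp2, -0.25 to 0.48 for casp8, -0.17 to 0.045 for casp9, -0.20 to 1.78 for mcl1a and -0.13 to 0.26 for xiap. Across 24 genes and 18 settings, 381 of 431 values kept direction and side of the threshold, 16 passed it newly, 5 no longer did and 29 in 9 genes changed sign. Of these genes bcl2a alone was called in the fit reported, so for the others the same side meant staying uncalled. All 5 values that no longer passed were of bcl2a, and a missing adjusted p counted as not called. The cause of the sign changes was not tested. Depth limits caspa, caspb, birc7, bcl2b and casp8l2, which had few or no reads in WT.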

Other observations

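Cell-cycle genes separated 1 Tg(ins:il1b) library from the other. Of 13 proliferation genes, whose sum was 4226.6 and 5120.9 normalised counts in WT against 5548.5 and 1607.1 in Tg(ins:il1b), top2a had 407.8 and 474.7 in WT against 389.1 and 2.1 in Tg(ins:il1b), and cdk1 had 374.7 and 564.4 in WT against 337.6 and 5.3 in Tg(ins:il1b). Tg(ins:il1b) replicate 2 was below both WT libraries for 11 of the 13 genes, above both for plk1 (260.8 and 297.1 in WT against 637.7 and 413.6 in Tg(ins:il1b)) and between them for mcm5. That library was high in markers of other islet and blood cells, and it also held most reads of bcl2b and caspa.

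Duplicated genes kept different balances between their copies across the libraries. Of the level per kb of baxa and baxb, baxa took 32.3% and 44.1% in WT against 36.6% and 35.9% in Tg(ins:il1b). Of that of diabloa and diablob, diabloa took 19.5% and 20.5% in WT against 11.8% and 20.7% in Tg(ins:il1b). Of that of bmf1 and bmf2, bmf1 took 93.7% and 72.4% in WT against 94.6% and 92.7% in Tg(ins:il1b), where WT replicate 2 alone stood apart. These shares are given as values, with no test.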
